A study of Mus musculus with 36 samples.

Results

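The constitutive proteasome genes are the genes for the subunits of the standard proteasome and for the proteins that assemble it. They were taken from the deposited table by symbol, as Psma, Psmb, Psmc, Psmd, Psmf or Psmg followed by a number, leaving out the inducible catalytic subunits Psmb8, Psmb9 and Psmb10 and the thymic subunit Psmb11. The rule gave 40 of 24127 genes and used no measured value. All 40 passed a minimum mean of 10 normalized counts, as did 11853 genes in all. The samples were mouse dendritic cells, cultured out of bone marrow in GM-CSF and selected on the surface integrin CD11c, from C57BL/6 mice that were wild type (WT) or labelled LGP2-/- (Dhx58-/-, here KO). Cells received 20 ng of PAMP RNA, a poly-U/UC sequence of hepatitis C virus that activates the RNA sensor RIG-I, or served as mock controls, which the labels also call untreated. RNA was taken after 1, 3 and 6 h, and each of the 12 groups held 3 libraries, 36 in all, with 4740909 to 14255730 reads.

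The gene named as deleted was checked first. Dhx58 encodes LGP2, an RNA helicase of the RIG-I family. In WT mock cells it had mean normalized counts of 93.6 at 1 h, 132 at 3 h and 307 at 6 h, and in mock cells labelled KO it had 147, 451 and 722. Its level in mock cells was thus higher in the libraries labelled KO, with a log2 difference of 1.19 ± 0.08 (SE), which goes against a label of absence, while its response to PAMP RNA at 6 h was 3.30 in WT and 0.37 in KO. Gene totals do not say which exons the reads came from, so KO below stands for the libraries labelled so. The marker genes of dendritic cells, among them Itgax and the MHC class II genes, summed to 31061 to 66622 normalized counts per library. Macrophage markers summed to 8557 to 18611, neutrophil markers to 103 to 226 and T cell markers to at most 65.9. Markers of B cells, NK cells, mast cells, erythroid cells and fibroblasts each summed to at most 18.8. In such bulk libraries fewer cells of a kind and less RNA per cell cannot be told apart.

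The proteasome degrades proteins that carry ubiquitin chains. Its core particle is a stack of rings: outer alpha rings that gate the entry and inner beta rings in which 3 subunits cut peptide bonds. A regulatory particle docks on the alpha ring, where its lid removes ubiquitin and its base, with a ring of ATPases, unfolds the substrate and threads it in. In antigen-presenting cells interferons induce alternative catalytic subunits that replace the constitutive ones during assembly, which changes the peptides available for MHC class I. Transcription of the constitutive genes is known to be coordinated by NRF1 (Nfe2l1), which binds antioxidant response elements in their promoters.

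Promoters are shown for 4 genes: the catalytic subunits Psmb5 and Psmb6, and the alpha ring genes Psma4 and Psma5. Psma4 had the largest rise at 6 h in both genotypes, and Psma5 the largest in KO at 3 h. Psma3, which rose more than Psma5 at 6 h, is not shown and held CCAAT at -139 to -135. Sequences are the 250 bases before the RefSeq start on GRCm38.p6, 5′ to 3′ in the direction of the gene. Capitals mark TGACNNNGC, the core of the antioxidant response element, GGGCGG, the GC box bound by SP1 family factors, CCAAT, or the core of the interferon-stimulated response element (2 GAAA blocks with 2 bases between), on either strand.
Psmb5, chr14:54617996-54618245, minus strand: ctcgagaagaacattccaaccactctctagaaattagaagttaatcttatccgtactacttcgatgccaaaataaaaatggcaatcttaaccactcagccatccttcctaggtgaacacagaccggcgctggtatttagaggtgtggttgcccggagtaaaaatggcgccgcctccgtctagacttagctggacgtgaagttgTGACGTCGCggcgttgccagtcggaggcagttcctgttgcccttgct
Psmb6, chr11:70525107-70525356, plus strand: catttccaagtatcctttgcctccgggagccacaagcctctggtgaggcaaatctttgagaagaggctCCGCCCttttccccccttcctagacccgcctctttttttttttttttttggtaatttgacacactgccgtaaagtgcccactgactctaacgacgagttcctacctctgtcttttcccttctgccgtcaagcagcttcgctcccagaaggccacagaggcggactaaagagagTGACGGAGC
Psma4, chr9:54950609-54950858, plus strand: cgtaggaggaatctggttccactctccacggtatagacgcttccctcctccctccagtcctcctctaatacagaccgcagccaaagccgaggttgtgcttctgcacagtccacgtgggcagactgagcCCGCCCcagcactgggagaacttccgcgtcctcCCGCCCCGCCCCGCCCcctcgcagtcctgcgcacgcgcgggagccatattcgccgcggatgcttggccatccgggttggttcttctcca
Psma5, chr3:108256676-108256925, plus strand: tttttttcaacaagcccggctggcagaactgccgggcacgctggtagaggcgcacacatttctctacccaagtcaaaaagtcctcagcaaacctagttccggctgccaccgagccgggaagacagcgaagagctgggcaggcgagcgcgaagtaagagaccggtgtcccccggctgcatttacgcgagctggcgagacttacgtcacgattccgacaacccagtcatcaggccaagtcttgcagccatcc
Psmb5 held an antioxidant response element core at -47 to -39 and Psmb6 at -9 to -1, counted back from the start. Psma4 held 4 GC boxes between -122 and -74, of which 3 run into one another, and Psmb6 held 1. Psma5 held no match to these 4 motifs in the window.

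Of the 40 genes, 32 had a promoter in the RefSeq table, and Psmb7 was not among them. Over windows from 250 bases before to 50 after the start, 5 of the 32 (15.6%) held the antioxidant response element core, against 15.3% of the promoters of 8977 tested genes. They were Psmb5, Psmb6, Psmc6, Psmd12 and Psmd9. The GC box was in 19 (59.4%) against 64.6%, and CCAAT in 11 (34.4%) against 38.9%. The interferon-stimulated response element core was in 4 (12.5%) against 3.42%, in Psmb3, Psmd4, Psmd9 and Psmg4. The gamma-activated site TTCNNNGAA was in 2 (6.2%) against 7.22%, and the kappa B core, which can overlap a GC box, in 17 (53.1%) against 67.8%. These are matches of letters and carry no measurement of binding. The 40 genes lie on 16 chromosomes.

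Before any response, levels differed widely between roles. Per kilobase of the principal transcript in WT mock cells at 1 h, Psmb5 stood highest with 1233 normalized counts per kilobase, followed by the lid subunit Psmd8 with 1155. Alpha ring genes ran from 9.72 for Psma8, a testis form of an alpha subunit, to 704 for Psma4, with a median of 291. The 4 non-catalytic beta subunits lay between 477 for Psmb1 and 697 for Psmb4. The 6 ATPases lay lower, from 126 for Psmc6 to 300.5 for Psmc1, and the 7 assembly chaperones had a median of 81.3. The order within these ranges was not tested.

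At 1 h after PAMP RNA no gene of the set passed limma's test in either genotype, where a call is a Benjamini-Hochberg adjusted p under 0.05 over all 11853 genes. In WT 0 rose and 0 fell, beside 0.801% and 0.143% of all genes. In KO 0 rose and 0 fell, beside 1.19% and 0.169%. At an unadjusted p under 0.05, 0 passed in WT and 1 in KO, and edgeR and DESeq2 made 0 calls as well.

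At 3 h, 9 of 40 rose and 0 fell in WT, beside 19.6% and 22% of all genes tested. The 9 were Psma3, Psma4, Psma5, Psmb3, Psmb4, Psmb7, Psmc5, Psmd6 and Psmd10, and without WT mock replicate 1 there were 5. Psmb3, Psmb4, Psmb7, Psmc5 and Psmd6 each lost the call without at least 1 library. Of the falling values 1 had an unadjusted p under 0.05, and edgeR called 1 and DESeq2 called 0. In KO, 9 rose and 1 fell, beside 23.8% and 26.9%, and 5 rose in both genotypes: Psma3, Psma4, Psma5, Psmb4 and Psmd10. The median change over the 40 genes was 0.10 on the log2 scale in both genotypes, against -0.03 over all genes in both. With equal totals it was -0.07 in WT and -0.15 in KO, against -0.20 and -0.28 over all genes. The KO median was 0.035 without KO PAMP replicate 1 and 0.13 without KO PAMP replicate 3. On the deposited scale the share that rose was near the share of all genes, whereas falls were fewer than among all genes. With equal totals more of the 40 genes fell in both genotypes, as the counts by scaling below show.

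At 6 h, 30 of 40 rose and 3 fell in WT, beside 32.1% and 33.3% of all genes. In KO 31 rose and 2 fell, beside 35.1% and 36.5%. The median change was 0.34 in WT and 0.50 in KO, against -0.02 and -0.03 over all genes. The same 29 genes rose in both genotypes, 1 fell in both, and 4 were called in neither. Without KO PAMP replicate 3 none of the 40 was called as falling in KO. These directions are on the deposited scale, which holds the typical gene level. With every library set to the same total instead, the median of all genes moved by -0.37 in WT and -0.48 in KO at 6 h. On that scale 12 of the 40 rose and 10 fell in WT, beside 1942 and 7402 of all 11853 genes. In KO 10 rose and 11 fell, beside 1999 and 7883 of all genes. These counts over all genes are the base for the counts by role and by marker list with equal totals at 6 h below. For such counts on the deposited scale the base is 32.1% rising and 33.3% falling in WT, and 35.1% and 36.5% in KO. Relative to the median gene the set stood 0.36 higher in WT on both scales and 0.35 higher after quantile normalization. In KO it stood 0.53, 0.52 and 0.43 higher. On the deposited scale 36 of 40 genes lay above the median gene in each genotype. As a share of all reads, the 40 genes went from 0.232% in WT mock cells at 6 h to 0.252% with PAMP RNA, and in KO from 0.231% to 0.248%. At 3 h their share was 0.269% in mock and 0.260% with PAMP RNA in WT, and 0.269% and 0.245% in KO.

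Sums of dendritic cell, macrophage and neutrophil markers were also higher with PAMP RNA at 6 h, without overlap except for neutrophil markers in WT. T cell markers, which held few counts, were higher without overlap too. They summed to 19.6 to 25.2 in WT mock and 49.5 to 56.9 with PAMP RNA, and to 17.3 to 32.6 and 55.9 to 65.9 in KO. Among the T cell genes Cd8a reached 64.4 normalized counts and no other passed 6.1. The sums of the remaining marker lists, which held fewer counts, went in both directions. Dendritic cell markers summed to 54591 to 56736 in WT mock and 65246 to 66622 with PAMP RNA at 6 h, and to 39149 to 40247 and 50479 to 50872 in KO. Macrophage markers summed to 12821 to 13375 in WT mock and 13979 to 15824 with PAMP RNA at 6 h, and to 13897 to 14549.6 and 17733 to 18611 in KO. Neutrophil markers summed to 106 to 122 in WT mock and 119 to 139.8 with PAMP RNA at 6 h, and to 106 to 117 and 178 to 204 in KO. Of 7 dendritic cell markers tested 5 rose and 1 fell in WT and 6 rose and 1 fell in KO, and with equal totals 2 rose and 3 fell in WT and 2 rose and 4 fell in KO. Of 5 macrophage markers 2 rose and 3 fell in WT and 2 rose and 1 fell in KO, and with equal totals 2 rose and 3 fell in both. The part of these shifts in the responses was not tested.

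**Figure D1:**
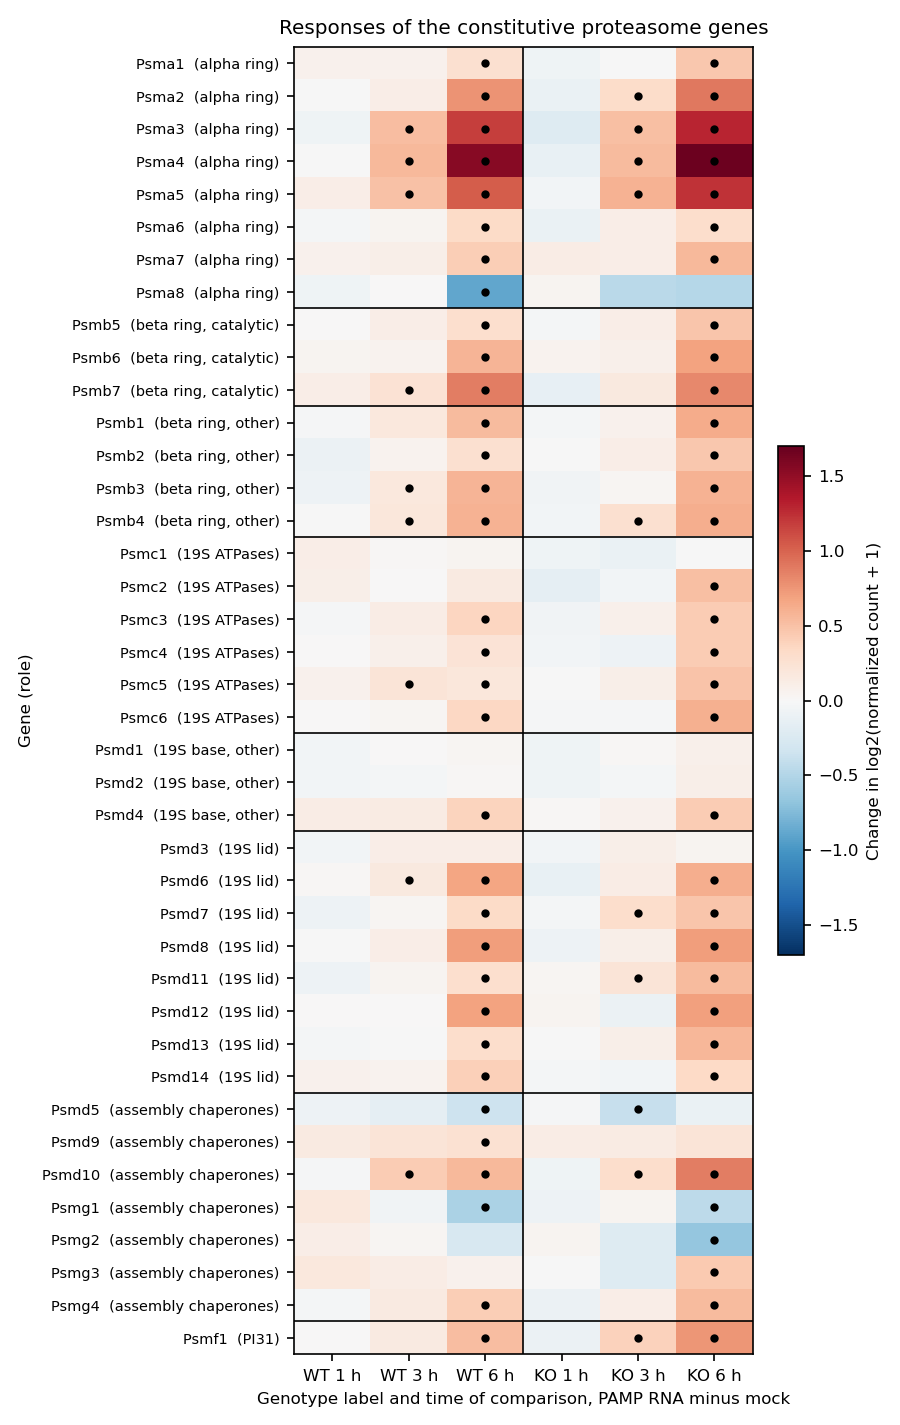
Change in log2(normalized count + 1), PAMP RNA minus mock, for each of the 40 genes (vertical axis, ordered by role) in WT and KO at 1, 3 and 6 h (horizontal axis), with a dot where limma's adjusted p was under 0.05. On the deposited scale 30 genes rose in WT and 31 in KO at 6 h, beside 32.1% and 35.1% of all genes, led by Psma3, Psma4 and Psma5. With equal library totals 12 and 10 rose, beside 1942 and 1999 of all 11853 genes.

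The genes with the 3 largest rises at 6 h, Psma4, Psma3 and Psma5, belong to the alpha ring. At 6 h, 7 of its 8 genes rose in each genotype, with medians of 0.59 in WT and 0.72 in KO, and with equal totals 4 rose and 1 fell in WT and 4 rose and 2 fell in KO. Psma4 (chr9:54950790-54958030, plus strand, GRCm38) encodes an alpha subunit and changed most. At 3 h its normalized counts were 824, 929.5 and 965 in WT mock and 1326, 1319.5 and 1316 with PAMP RNA, and in KO 942, 809.5 and 907 in mock and 1356, 1274 and 1215 with PAMP RNA. At 6 h they were 829.6, 804 and 841 in WT mock and 2605, 2178 and 2491 with PAMP RNA, and in KO 813, 763 and 886 in mock and 2655, 2439 and 2689.8 with PAMP RNA. Every library with PAMP RNA lay above every mock library of its genotype and time. The log2 change was 0.55 ± 0.07 (SE) in WT and 0.53 ± 0.07 (SE) in KO at 3 h, with limma adjusted p-values of 1.56e-09 and 2.09e-09. At 6 h it was 1.55 ± 0.07 (SE) and 1.66 ± 0.07 (SE), with adjusted p-values of 2.43e-25 and 1.05e-26. Of the bases in its annotated exons, 4.8% overlap an opposite-strand gene, AY074887, and the library kit did not keep the strand.

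Psma5 (chr3:108256926-108279974, plus strand) encodes another alpha subunit and had the largest rise in KO at 3 h. Its counts at 3 h were 269.9, 239 and 258 in WT mock and 353, 356 and 375 with PAMP RNA, and in KO 262, 218 and 237 in mock and 377, 339 and 361 with PAMP RNA. At 6 h they were 257, 268 and 256 in mock and 545, 496 and 559 with PAMP RNA in WT, and 252, 248 and 230.0 in mock and 609, 591 and 519 with PAMP RNA in KO. The treated and mock libraries did not overlap in any of these pairs. Changes were 0.50 ± 0.08 (SE) and 0.59 ± 0.08 (SE) at 3 h and 1.03 ± 0.08 (SE) and 1.23 ± 0.08 (SE) at 6 h, with limma adjusted p-values of at most 9.33e-07.

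Psma3, a further alpha ring gene, had counts at 6 h of 146, 137 and 127 in KO mock and 388, 315 and 311 with PAMP RNA, and its treated libraries stood above the mock libraries in WT as well. It changed by 1.17 ± 0.11 (SE) in WT and 1.30 ± 0.11 (SE) in KO. Psma3, Psma4 and Psma5 rose at both times and in both genotypes on the deposited scale, after quantile normalization and with equal totals. The rest of the ring changed less: Psma2 rose by 0.77 in WT and 0.89 in KO at 6 h, Psma7 by 0.42 and 0.55, Psma6 by 0.33 and 0.30, and Psma1 by 0.27 and 0.46. With equal totals Psma1 and Psma6 had the opposite sign in both genotypes. Psma8 was near the floor of the assay, with 10.1, 11.2 and 9.9 normalized counts in WT mock at 6 h and 8.3, 2.4 and 6.5 with PAMP RNA. Its fall of 0.88 in WT passed limma but neither edgeR nor DESeq2, and without PAMP replicate 2 the value was -0.45 and was no longer called.

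Psmb5, Psmb6 and Psmb7 carry the chymotrypsin-like, caspase-like and trypsin-like sites. All 3 rose at 6 h in both genotypes, with medians of 0.58 and 0.68, and with equal totals Psmb6 and Psmb7 rose and Psmb5 had the opposite sign in both genotypes. Psmb5 had normalized counts at 1 h of 1174, 1169 and 982 in WT mock and 1128, 1066 and 1129 with PAMP RNA, and in KO 1214, 1060.4 and 1106 in mock and 1117, 1135 and 1061 with PAMP RNA. At 3 h it had 1234, 1215 and 1264 in mock and 1402, 1336 and 1297 with PAMP RNA in WT, and 1209.5, 1239.8 and 1257 in mock and 1448, 1332 and 1226 with PAMP RNA in KO. At 6 h it had 1174, 1186 and 1188 in mock and 1476, 1360.0 and 1494 with PAMP RNA in WT, and 1123, 1057 and 1175 in mock and 1491, 1529 and 1613 with PAMP RNA in KO. Treated and mock libraries separated at 6 h in both genotypes and at 3 h in WT, and overlapped elsewhere. The change at 6 h was 0.29 ± 0.06 (SE) in WT and 0.47 ± 0.06 (SE) in KO, with limma adjusted p-values of 4.92e-05 and 2.41e-09. After quantile normalization the WT value was -0.07, so its direction in WT depends on the scale. The microRNA gene Mir686 shares 12.1% of the exon bases of Psmb5 on the same strand.

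Psmb6 (chr11:70525367-70527858, plus strand) had counts at 1 h of 544, 480.5 and 462 in WT mock and 512, 485 and 528 with PAMP RNA, and in KO 522, 500.1 and 491 in mock and 521, 518 and 539.6 with PAMP RNA. At 3 h the counts were 501, 576 and 562 in mock and 593, 594 and 526 with PAMP RNA in WT, and 532, 495 and 557 in mock and 611, 553 and 518 with PAMP RNA in KO. At 6 h they were 540.2, 504 and 572 in mock and 873, 773 and 777 with PAMP RNA in WT, and 555, 507 and 559.5 in mock and 983, 836 and 796 with PAMP RNA in KO. Treated and mock libraries overlapped at 1 and 3 h and separated at 6 h. The change at 6 h was 0.58 ± 0.07 (SE) in WT and 0.68 ± 0.07 (SE) in KO, with limma adjusted p-values of 2.67e-09 and 2.76e-11.

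Psmb7 (chr2:38588036-38644087, minus strand) had counts at 1 h of 412, 372 and 350.5 in WT mock and 389, 370.4 and 466 with PAMP RNA, and in KO 433, 443 and 457 in mock and 422, 394 and 398 with PAMP RNA. Its counts at 3 h were 347, 439 and 415 in mock and 494, 466 and 461 with PAMP RNA in WT, and 426, 326 and 391 in mock and 476, 398 and 408 with PAMP RNA in KO. By 6 h they were 337, 342 and 334 in mock and 660.4, 572 and 619 with PAMP RNA in WT, and 364, 298 and 324 in mock and 579, 567 and 584 with PAMP RNA in KO. In WT the treated libraries stood above the mock libraries at 3 and 6 h, and in KO they stood below them at 1 h and above them at 6 h. The WT change was 0.25 ± 0.09 (SE) at 3 h and 0.86 ± 0.09 (SE) at 6 h, and the KO change at 6 h was 0.81 ± 0.09 (SE), with a limma adjusted p of 2.06e-11. Without WT mock replicate 1 the WT value at 3 h was 0.15 and was not called. Nek6 on the opposite strand shares 11.8% of its exon bases.

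**Figure D2:**
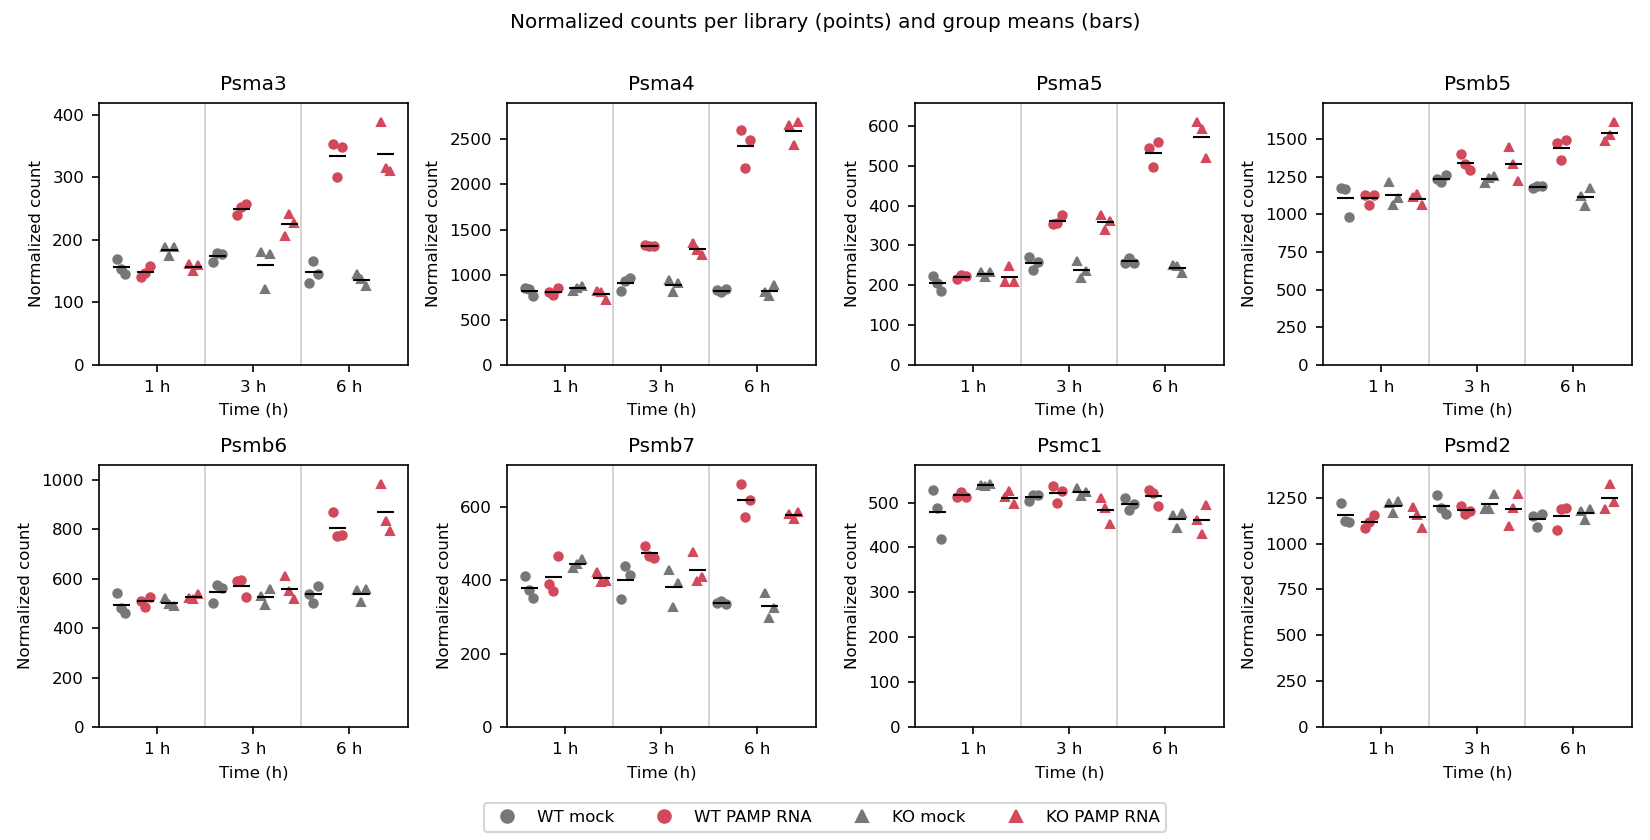
Normalized counts (vertical axis, from 0, a scale for each gene) of 8 genes in each of the 36 libraries by time (horizontal axis), with circles for WT, triangles for KO, grey for mock, red for PAMP RNA and bars at group means. Psma3, Psma4, Psma5, Psmb6 and Psmb7 separate by treatment at 6 h, with Psma4 at 763 to 886 in mock libraries and 2178 or more in treated ones, while Psmc1 overlaps in both genotypes and Psmd2 in WT.

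The inducible subunits that replace these 3 rose more. Psmb8, which replaces Psmb5, changed by 1.24 in WT and 1.57 in KO at 6 h. Psmb9, which replaces Psmb6, changed by 2.03 and 2.38, and Psmb10, which replaces Psmb7, by 1.83 and 2.28. Gm20496 on the opposite strand shares 14.7% of the exon bases of Psmb8, and Tap1, also opposite, shares 5.8% of those of Psmb9. The log2 ratio of each inducible to its constitutive subunit was compared per library by a two-sided exact permutation test over 400 relabellings of treatment within genotype. At 6 h the ratio rose by 1.03 for Psmb8 over Psmb5, 1.57 for Psmb9 over Psmb6 and 1.21 for Psmb10 over Psmb7. At 3 h it rose by 0.61, 1.34 and 0.91. Each of these 6 had an exact permutation p of 0.005, the smallest the test allows, and an adjusted p of 0.0075 over the 9 ratios tested. At 1 h the values were 0.00, -0.15 and 0.00, with a smallest exact permutation p of 0.115 and an adjusted p of 0.148. At 3 and 6 h all treated libraries lay above all mock libraries of the same time in each ratio. A factor per library cancels in the ratio, and after quantile normalization, which can move it, the 6 h values were 0.88, 1.45 and 1.04. In WT mock cells at 1 h Psmb8 stood at 722 normalized counts per kilobase and Psmb5 at 1233, and with PAMP RNA at 6 h they stood at 1882 and 1606.

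**Figure D3:**
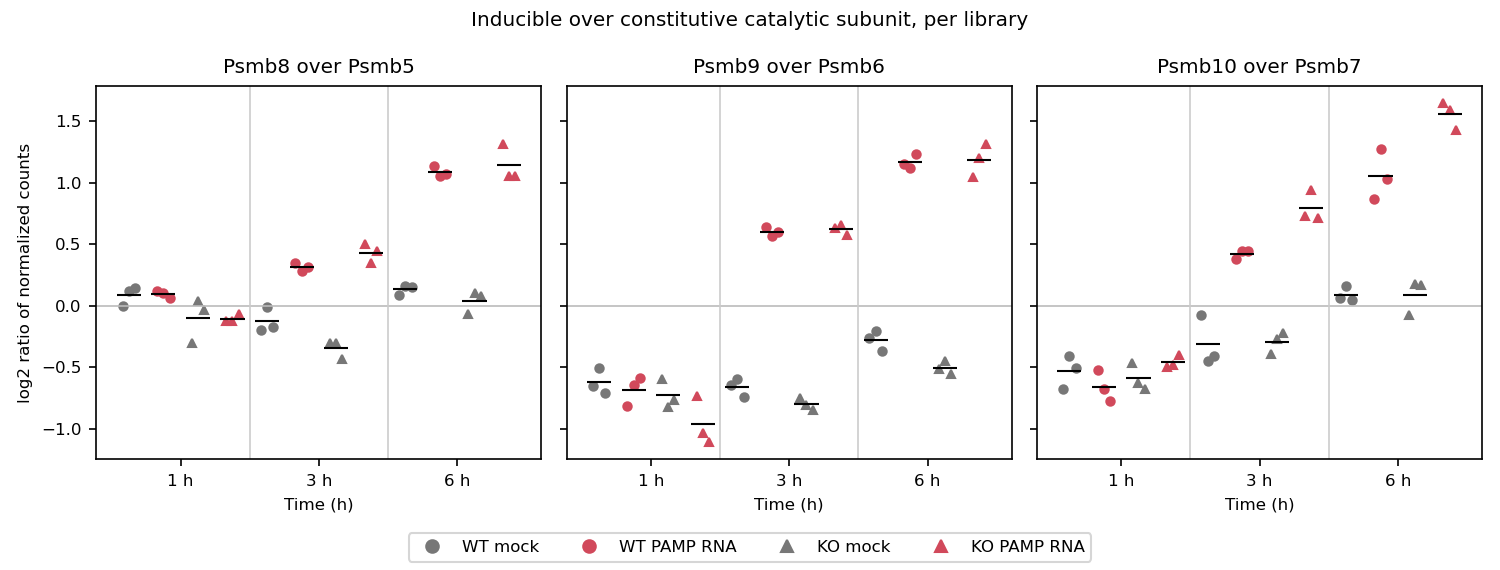
Log2 ratio of normalized counts of an inducible over its constitutive catalytic subunit (vertical axis) in each library by time (horizontal axis), with circles for WT, triangles for KO, grey for mock, red for PAMP RNA and bars at group means. The treated libraries stand above the mock libraries at 3 and 6 h for all 3 pairs and overlap with them at 1 h, with mean changes at 6 h of 1.03, 1.57 and 1.21.

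The non-catalytic beta subunits Psmb1, Psmb2, Psmb3 and Psmb4 complete the inner rings. All 4 rose at 6 h in both genotypes, with medians of 0.56 in WT and 0.61 in KO, and with equal totals 3 of 4 rose in WT and 0 of 4 in KO. Psmb4, one of the last subunits to join, changed by 0.59 and 0.61, Psmb3 by 0.58 and 0.60, Psmb1 by 0.54 and 0.63, and Psmb2 by 0.27 and 0.45.

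The ATPases of the base unfold substrates. In WT 4 of 6 rose at 6 h with a median of 0.21, in KO 5 of 6 with a median of 0.46, and with equal totals 0 rose in either genotype while 2 fell in WT and 1 in KO. Psmc6 changed by 0.36 and 0.60, Psmc3 by 0.37 and 0.44, Psmc4 by 0.23 and 0.43, and Psmc5 by 0.20 and 0.49. The WT call of Psmc5 was lost with DESeq2, after quantile normalization and without 3 of the 6 libraries, where the value went down to 0.14. The exception in both genotypes was Psmc1, with 510.0, 483 and 496 normalized counts in WT mock at 6 h and 528, 522 and 492 with PAMP RNA. Its groups overlapped, and its change was 0.05 ± 0.06 (SE) in WT and -0.01 ± 0.06 (SE) in KO. The other base proteins were the scaffolds Psmd1 and Psmd2 and the ubiquitin receptor Psmd4. Of these Psmd4 rose at 6 h, by 0.38 in WT and 0.43 in KO. The values of Psmd1 were 0.03 ± 0.07 (SE) in WT and 0.09 ± 0.07 (SE) in KO, those of Psmd2 were 0.02 ± 0.05 (SE) and 0.10 ± 0.05 (SE), and neither was called. With equal totals Psmd1 and Psmd2 fell in both genotypes, by 0.34 and 0.35 in WT and by 0.40 and 0.39 in KO, and the value of Psmd4 was 0.00 in WT and -0.05 in KO.

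The lid includes the deubiquitinase Psmd14. Of its 8 genes 7 rose at 6 h in each genotype, with medians of 0.36 in WT and 0.55 in KO, and with equal totals 3 rose and 1 fell in WT and 2 rose and 2 fell in KO. Psmd8 led, by 0.71 and 0.72, with Psmd12 at 0.69 and 0.69 and Psmd6 at 0.66 and 0.61. Psmd14 changed by 0.40 and 0.33. The lid gene not called was Psmd3, with 0.11 in WT and 0.04 in KO. Over the ring, base and lid genes other than Psma8, the change in WT at 6 h ran from 0.02 for Psmd2 to 1.55 for Psma4.

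The assembly chaperones were called in both directions at shares near those of all genes. In WT 3 of 7 rose and 2 fell at 6 h, beside 32.1% and 33.3% of all genes, and in KO 3 rose and 2 fell, beside 35.1% and 36.5%, and with equal totals 0 rose and 4 fell in WT and 1 rose and 4 fell in KO. Psmd10, or gankyrin, which escorts an ATPase, rose at 3 and 6 h in both genotypes. Its counts at 6 h were 329.7, 336 and 365 in WT mock and 486, 511 and 515 with PAMP RNA, and in KO 337, 281 and 310.2 in mock and 565, 551 and 571 with PAMP RNA. The groups did not overlap, and the change was 0.55 ± 0.08 (SE) in WT and 0.87 ± 0.08 (SE) in KO. The WT value at 6 h was 0.18 and the KO value at 3 h 0.049 with equal totals, and neither was then called.

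Psmd5 escorts another ATPase and fell. Its counts at 3 h were 473, 494 and 528 in WT mock and 468, 456 and 421 with PAMP RNA, and in KO 507, 479 and 489 in mock and 377, 363 and 379 with PAMP RNA. At 6 h they were 395, 395 and 434 in mock and 322, 283 and 357 with PAMP RNA in WT, and 399, 352 and 385 in mock and 335, 358 and 352 with PAMP RNA in KO. The treated libraries lay below the mock libraries except in KO at 6 h, where they overlapped. The fall was called in KO at 3 h, at -0.40 ± 0.07 (SE) with a limma adjusted p of 5.30e-06, and in WT at 6 h, at -0.35 ± 0.07 (SE) with 3.04e-05. The WT value at 3 h was -0.15 and the KO value at 6 h -0.12.

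Psmg1 and Psmg2 form the pair that starts alpha ring assembly. Psmg1 had counts at 6 h of 51.2, 82 and 60.1 in WT mock and 50.7, 42.7 and 37.5 with PAMP RNA, and in KO 63.5, 48.4 and 64.3 in mock and 62.5, 38.7 and 32.1 with PAMP RNA. The groups nearly met in WT and overlapped in KO. Its change was -0.53 ± 0.17 (SE) in WT and -0.44 ± 0.17 (SE) in KO, with limma adjusted p-values of 0.00675 and 0.0226. Without WT mock replicate 2 the WT value was -0.35, and without KO PAMP replicate 3 the KO value was -0.24, and neither was then called. The KO call was also lost with edgeR, with DESeq2, after quantile normalization, and without 4 of the 6 libraries in all. Psmg2 had 51.6, 57 and 45.8 in KO mock at 6 h and 49.2, 37.2 and 17.8 with PAMP RNA, and 44.5, 47.5 and 48.5 in mock and 40.1, 32 and 45.3 with PAMP RNA in WT. Its groups overlapped in both genotypes. It changed by -0.66 ± 0.20 (SE) in KO, with a limma adjusted p of 0.0036, and its WT value was -0.27. Without KO PAMP replicate 3 the KO value was -0.25 and was not called. Psmg4 rose by 0.42 and 0.54. Psmg3 rose by 0.44 in KO, with a WT value of 0.07, and Psmd9 rose by 0.26 in WT, with a KO value of 0.22. Without WT PAMP replicate 1 the Psmd9 value in WT was 0.10 and was not called. Gm26745 on the opposite strand shares 25.5% of the exon bases of Psmd9. Psmf1, which encodes the proteasome binding protein PI31, rose by 0.52 in WT and 0.76 in KO at 6 h, and with equal totals the WT value was 0.15 and was not called.

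Mock cells also changed with time. Averaged over genotypes, 7 of 40 rose and 3 fell from 1 to 3 h, beside 26.7% and 27.7% of all genes. Their median was 0.024, and without WT mock replicate 3 of 1 h it was -0.0075. Psmd5 rose most, from 381, 346 and 346 in WT and 352, 342 and 357 in KO at 1 h to the values at 3 h given above, by 0.48 ± 0.05 (SE). Psmd3 fell most. It had 601, 736 and 648 in WT and 645, 642 and 663 in KO at 1 h, and 559, 511 and 539 in WT and 585, 610.0 and 562 in KO at 3 h. The groups of WT separated and so did those of KO, and the change was -0.22 ± 0.05 (SE) with a limma adjusted p of 3.67e-05.

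From 3 to 6 h, 1 of 40 rose and 23 fell in mock cells, beside 28.9% and 28.4% of all genes, with a median of -0.20 against 0.00 over all genes. All 6 ATPases and 6 of 8 lid genes fell, and with equal totals 6 and 8 did, beside 4143 of all 11853 genes. The fall of Psmc1 was not called by DESeq2, at -0.083, nor without 7 of the 12 libraries. Psmd12, a lid subunit, fell most. Its counts in mock cells were 332, 348 and 307 in WT and 331, 309 and 332 in KO at 3 h, and 255, 205 and 228 in WT and 267, 218 and 220.3 in KO at 6 h. No library at 6 h reached one at 3 h, and the change was -0.49 ± 0.06 (SE) with a limma adjusted p of 8.08e-10. Psmd10 was the gene that rose. Its mock counts were 243, 283 and 266 in WT and 303, 244 and 276 in KO at 3 h, beside the 6 h values given above, with overlap between the times in KO and none in WT, and its change was 0.28 ± 0.06 (SE).

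In cells with PAMP RNA 23 of 40 rose and 8 fell from 3 to 6 h, beside 36.5% and 32.9% of all genes, with a median of 0.18. With equal totals 9 rose and 19 fell, beside 1944 and 6945 of all 11853 genes, with a median of -0.10 against -0.25 over all genes. The response itself was larger at 6 than at 3 h for 30 genes and smaller for 1, Psmg1, beside 27.4% and 23.5% of all genes, with a median difference of 0.34. With equal totals 13 were larger and 7 smaller, beside 1591 and 5279 of all 11853 genes. This difference of responses is the change in treated cells minus that in mock cells, so it holds both. Psmg1 was not called without WT mock replicate 2 of 6 h, at -0.38, nor without KO PAMP replicate 3 of 6 h, at -0.38. For the alpha ring the medians from 3 to 6 h were 0.43 in treated and -0.14 in mock cells, with 7 of 8 genes rising in treated cells and with equal totals 5 of 8. For the ATPases they were 0.03 and -0.26, with 1 of 6 genes rising and 0 falling in treated cells, and with equal totals 0 rising and 5 falling. For the lid they were 0.12 and -0.32. Psma4 rose by 0.94 in treated cells. Its value in mock cells was -0.12, which was called by limma but not without the filter, by DESeq2 or without 6 of the 12 libraries. For Psmd12 the values were 0.24 and -0.49, so the larger part of its response difference lay in the mock cells.

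**Figure D4:**
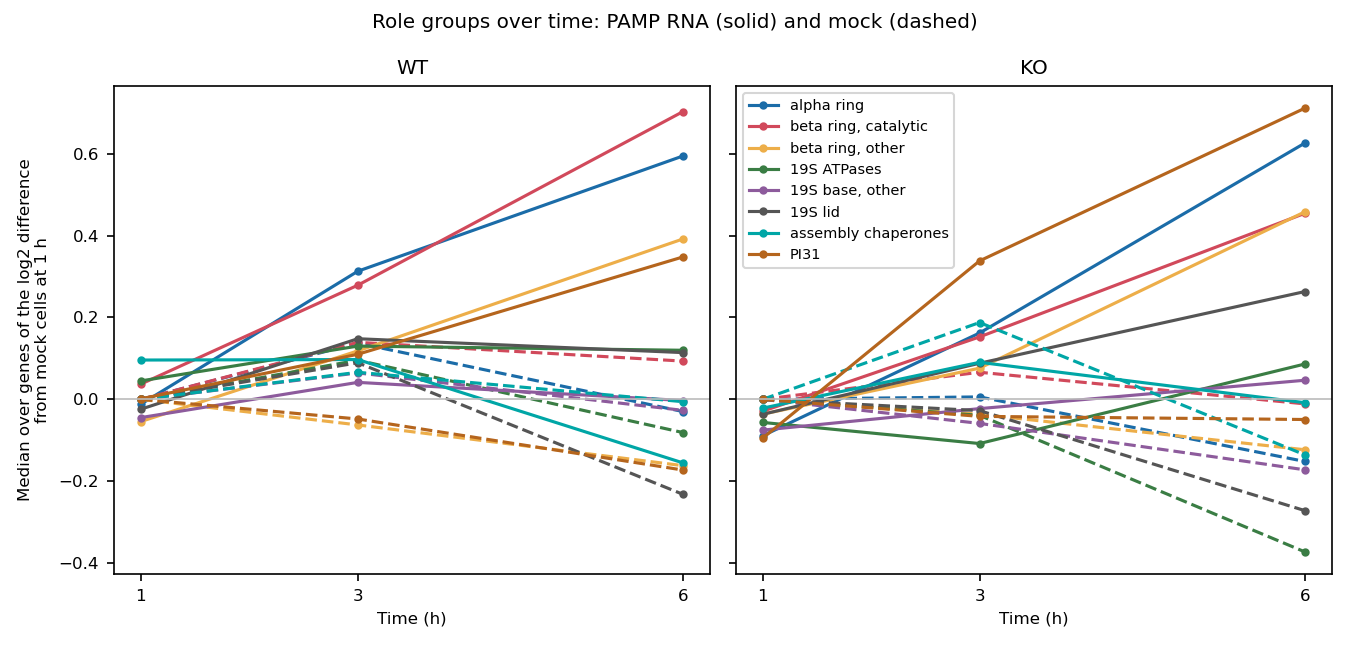
Median over the genes of each role of the log2 difference from mock cells of the same genotype at 1 h (vertical axis) against time in h (horizontal axis), with solid lines for PAMP RNA and dashed lines for mock, WT on the left and KO on the right. On the deposited scale the alpha ring and catalytic beta lines rise with PAMP RNA to 6 h, while the lid and ATPase lines of mock cells fall after 3 h. With equal totals the lid and ATPase medians of treated cells from 3 to 6 h were -0.15 and -0.24, beside -0.25 over all genes.

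Few of the genes were called between the genotypes. In mock cells averaged over time, 2 of 40 were higher in the libraries labelled KO, beside 10.5% of all genes, and 0 were lower, beside 11.7%. They were Psmd8 at 0.12 ± 0.03 (SE) and Psmd6 at 0.10 ± 0.04 (SE), and leaving out 1 library at a time gave 1 to 3 higher and 0 to 2 lower genes. Psmd6 was not called without 13 of the 18 mock libraries. Of the lower values 3 had an unadjusted p under 0.05, and edgeR called 1 lower gene, DESeq2 0 and the fit with a replicate block 1. The KO response minus the WT response was called by limma for 0 genes at 1 h in either direction, beside 0.118% and 0% of all genes, and for 0 at 3 h, beside 2.58% and 0.557%. At an unadjusted p under 0.05 these were 2 and 3 genes, and edgeR and DESeq2 called 0. The KO value was the higher one for 10 of 40 at 1 h and for 13 of 40 at 3 h. The median differences were -0.059 and -0.044, against 0.006 and 0.005 over all genes. They went up to 0.0026 without WT mock replicate 3 of 1 h and to -0.0022 without KO mock replicate 3 of 3 h. At 6 h 1 gene had a larger response in KO, beside 6.67%, and 0 a smaller one, beside 3.81%. At an unadjusted p under 0.05, 9 were larger and 0 smaller. The KO value was the higher one for 32 of 40, with a median difference of 0.12 against 0.02 over all genes, and with equal totals the median was 0.00 against -0.09. It was 0.063 without KO mock replicate 2 and 0.16 without WT PAMP replicate 1. The marker sums of mock cells differed between the genotypes. Those of dendritic cells were 49553 to 51418 at 1 h, 46569 to 47881 at 3 h and 54591 to 56736 at 6 h in WT, and 32693 to 35748, 31061 to 33533 and 39149 to 40247 in KO. Those of macrophages were 9456 to 9867, 9882 to 10449 and 12821 to 13375 in WT, and 10575 to 11144, 10803 to 11487 and 13897 to 14549.6 in KO. At each time KO was lower in the first and higher in the second without overlap, and their part in the genotype results was not tested.

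The 1 gene called was the ATPase gene Psmc2. At 6 h it had 270.1, 273 and 269 in WT mock and 290.1, 319 and 298 with PAMP RNA, and 244, 225 and 242 in KO mock and 358, 334 and 324 with PAMP RNA. The KO mock libraries were the lowest of the 4 groups and the KO treated libraries the highest. The difference of responses was 0.35 ± 0.12 (SE) with a limma adjusted p of 0.0426. It was not called by edgeR or DESeq2, nor after leaving out 10 of the 12 libraries 1 at a time. Of the genes that are not in the set, Psmb8 had a larger response in KO at 3 h by 0.32 and at 6 h by 0.33, and Psmb10 at 6 h by 0.45, while the differences for Psmb5 and Psmb7 were 0.18 ± 0.08 (SE) and -0.05 ± 0.12 (SE) and were not called.

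**Figure D5:**
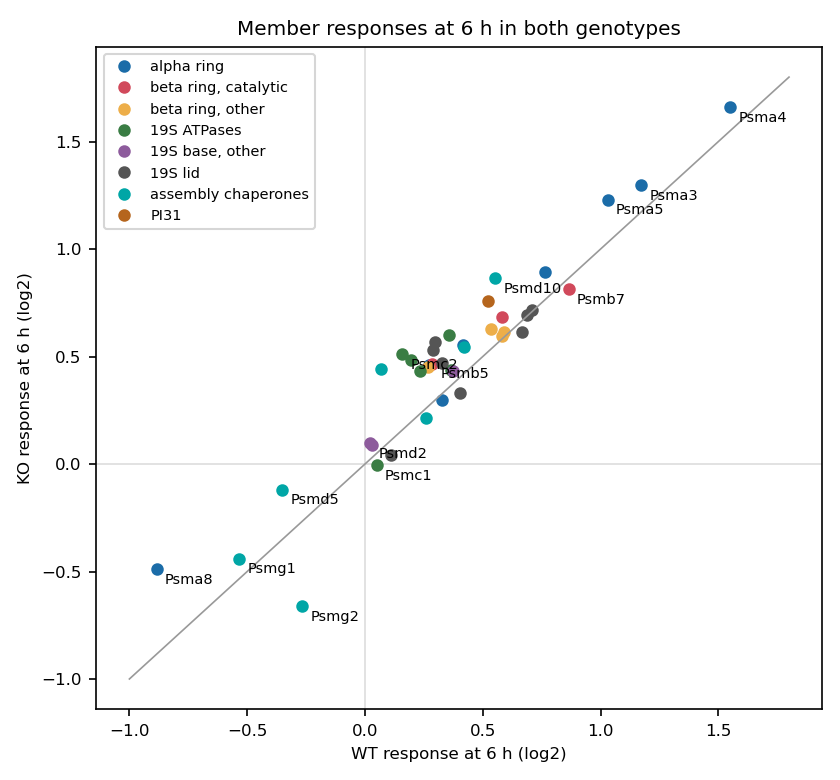
Log2 response to PAMP RNA at 6 h in WT (horizontal axis) and in the libraries labelled KO (vertical axis) for the 40 genes, coloured by role, with a line where both are equal. Most points lie above the line, with the KO value higher for 32 of 40, and Psmc2 is the 1 gene whose difference was called on the deposited scale, while with equal totals none was.

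Other genes of the proteasome and its regulation were taken from fixed lists. All 3 inducible catalytic genes and all 4 genes of the activators rose at 6 h in both genotypes, with medians of 1.83 and 1.05 in WT and 2.28 and 1.35 in KO, and with equal totals Psme3 had the opposite sign in both. Psme1 and Psme2, which encode the PA28 activator induced by interferon, changed by 1.32 and 1.41 in WT and by 1.66 and 1.82 in KO. Psme4, which encodes PA200, rose by 0.78 and 1.04. Of 15 further subunits and associated factors 5 rose and 4 fell in WT and 7 rose and 4 fell in KO at 6 h, beside 32.1% and 33.3% of all genes in WT and 35.1% and 36.5% in KO, and with equal totals 1 rose and 11 fell in each. Pomp, the chaperone that carries beta subunits to the alpha ring, rose by 0.75 and 0.94. Of 15 genes that act with NRF1 or its relatives 7 rose and 3 fell in each genotype at 6 h, and with equal totals 3 rose and 8 fell in WT and 2 rose and 9 fell in KO. Nfe2l1 itself rose by 0.51 in WT and 0.46 in KO, with the opposite sign in KO after quantile normalization and with equal totals. Ddi2, the protease that releases NRF1, fell by 0.55 and 0.71. Mafk, a small partner of such factors, rose by 2.09 and 2.54, and Keap1, which restrains NRF2, by 1.42 and 1.47.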

How the data were processed

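RNA was amplified with a template-switching kit, tagmented and read as single ends without strand, per the labels' protocols. The submitters' processing notes name TopHat, Cufflinks, DESeq2 and the build GRCm38 (mm10), and give neither versions nor roles. As deposited, the signal is DESeq-normalized counts per gene, which the values show to be reads divided by 1 factor per library. All values (100%) came out as whole multiples of 1 read within 0.01, so reads were recovered for edgeR 4.0.16 and DESeq2 1.42.0. The main test was limma 3.58.1 with a mean-variance trend on log2(normalized count + 1), over 12 group means with 24 residual degrees of freedom, for 11853 genes with a mean of at least 10. Changes are on that scale, which understates those of low genes. Adjusted p-values are Benjamini-Hochberg values over these genes, with a threshold of 0.05. The script was tested on simulated data. A result on 1 gene outside the set is not reported here.

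The genes and lists were chosen with earlier results of these data known. Every gene of the set could be named. Values per library were given for Psmb5, Psmb6 and Psmb7, and for the gene with the largest rise and the largest fall in each response at 3 and 6 h and each change in mock cells, among called genes with a mean of at least 50. Psma3, Psmc1, Psmc2 and Psma8 were given so after their values were seen, as were the comparisons of 6 h with 3 h in treated cells and in the response, and the tests of ratios. The labels call the libraries biological triplicates, and p-values measure the spread between them. No 2 libraries held identical values, and the lowest correlation within a group was 0.989. Gene positions are from GENCODE on GRCm38 and promoters from RefSeq. Alternatives were another pseudocount, no filter, other scalings, other tools, a replicate block and leaving out each library.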

Additional observations from a re-analysis of the deposited data

Results flagged for a closer look

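Responses to PAMP RNA at 6 h differed from those at 3 h, by limma's test of the difference averaged over genotypes, a comparison chosen after the data had been seen. In the alpha ring the differences in log2 response were 0.33 for Psma1, 0.62 for Psma2, 0.72 for Psma3, 1.07 for Psma4, 0.59 for Psma5, 0.23 for Psma6 and 0.38 for Psma7. In the beta rings they were 0.45 for Psmb1, 0.28 for Psmb2, 0.48 for Psmb3, 0.37 for Psmb4, 0.26 for Psmb5, 0.56 for Psmb6 and 0.63 for Psmb7. Among the ATPases they were 0.36 for Psmc2, 0.29 for Psmc3, 0.34 for Psmc4 and 0.47 for Psmc6. In the lid and the rest of the base they were 0.30 for Psmd4, 0.49 for Psmd6, 0.23 for Psmd7, 0.61 for Psmd8, 0.28 for Psmd11, 0.73 for Psmd12, 0.38 for Psmd13 and 0.36 for Psmd14. Among the chaperones they were 0.34 for Psmd10, 0.30 for Psmg3, 0.34 for Psmg4 and -0.48 for Psmg1, and for Psmf1 0.37. The difference for Psmg3 was not called without the filter, with equal totals, at 0.085, or without 11 of the 24 libraries, and with equal totals 13 of the 40 genes had a larger response at 6 h.

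Responses differed between the genotypes by limma's test of that difference, KO minus WT. Of the 40 genes this held for Psmc2 at 6 h, at 0.35. Of the other genes of the fixed lists it held at 3 h for Psmb8 at 0.32, Mafk at 0.51, Bach1 at 0.29 and Sel1l at 0.24. At 6 h it held for Psmb8 at 0.33, Psmb10 at 0.45, Psme1 at 0.34, Mafk at 0.45, Ubb at 0.27 and Uba1 at 0.33. Of all genes tested 2.58% at 3 h and 6.67% at 6 h had a larger response in KO. With equal totals the median gene moved by -0.073 at 3 h and -0.11 at 6 h in this difference.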

How the results depend on the processing

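Values were recomputed with a pseudocount of 0.5, without the filter, after quantile normalization, with equal library totals, with edgeR and DESeq2 on the recovered reads, with a replicate block, and without each library in turn. Of 163 called values named here, the pseudocount and the replicate block kept 163 each, edgeR 158, no filter 157, DESeq2 155, quantile normalization 141 and equal totals 93, and 139 were kept without every library in turn. Equal totals turned 26 called values around and quantile normalization 2. Scaling is the choice that moved most values, since equal totals lower the median gene. The same libraries limit all results, with 3 per group. Replicate numbers did not pair the libraries: same-numbered libraries had a median correlation of residuals of 0.00, from -0.11 to 0.18, and 12 of 36 lay closest to their own number.

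In WT at 3 h quantile normalization gave 5 rising and 2 falling genes, equal totals 4 and 5 with a median of -0.072, and edgeR 1 falling. In WT at 6 h the median was 0.24 after quantile normalization, and equal totals gave 12 rising, 10 falling and a median of -0.031. In KO at 3 h quantile normalization gave 5 falling and a median of -0.024, edgeR 2 falling, and equal totals 3 rising, 19 falling and a median of -0.15. In KO at 6 h quantile normalization gave 5 falling and a median of 0.31, edgeR and DESeq2 1 falling each, and equal totals 10 rising, 11 falling and a median of 0.013. The genotype difference at 6 h had 0 larger genes without the filter, after quantile normalization, with equal totals, with edgeR and with DESeq2, and a median of 0.0035 with equal totals. In mock cells of KO against WT, no filter and DESeq2 gave 1 higher, and quantile normalization, edgeR and the replicate block 1 lower. In treated cells from 3 to 6 h the median was 0.044 after quantile normalization, and equal totals gave 9 rising, 19 falling and a median of -0.10. For the 6 h response less the 3 h response quantile normalization gave 0 smaller and a median of 0.24, and equal totals 13 larger, 7 smaller and a median of 0.12. With equal totals, of all 11853 genes 1607 rose and 5366 fell in WT at 3 h, and 1765 and 6736 in KO. At 6 h 1942 rose and 7402 fell in WT, and 1999 and 7883 in KO. In treated cells from 3 to 6 h 1944 rose and 6945 fell. For the 6 h response less the 3 h response 1591 were larger and 5279 smaller. The cause was not tested.

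Leaving out 1 library at a time, rising genes numbered 5 to 9 in WT at 3 h, falling genes 1 to 3 in WT at 6 h, 1 to 2 in KO at 3 h and 0 to 2 in KO at 6 h, genes with a larger KO response at 6 h 0 to 1, genes higher in KO mock cells 1 to 3 and lower 0 to 2, and genes with a smaller response at 6 than at 3 h 0 to 2.

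The lists below hold only values that limma called on the deposited scale or with the alternative named. Values called in neither also changed sign and are left out. In treated cells from 3 to 6 h only part of the set was looked at in this way. With equal totals, the log2 values that changed sign in the WT response at 3 h were Psmc1 -0.15, Psmd1 -0.18 and Psmd6 -0.0090. With equal totals, the log2 values that changed sign in the WT response at 6 h were Psma1 -0.10, Psma6 -0.045, Psmb2 -0.10, Psmb5 -0.087, Psmc1 -0.32, Psmc2 -0.22, Psmc3 -0.0074, Psmc4 -0.14, Psmc5 -0.18, Psmc6 -0.016, Psmd1 -0.34, Psmd11 -0.082, Psmd13 -0.077, Psmd2 -0.35, Psmd3 -0.26, Psmd7 -0.045, Psmd9 -0.11, Psmg3 -0.30, Psme3 -0.074 and Adrm1 -0.069. With equal totals, the log2 values that changed sign in the KO response at 3 h were Psmb1 -0.17, Psmb3 -0.22, Psmb5 -0.14, Psmb6 -0.17, Psmc3 -0.17, Psmd1 -0.23, Psmd11 -0.028, Psmd3 -0.15, Psmd8 -0.15 and Adrm1 -0.20. With equal totals, the log2 values that changed sign in the KO response at 6 h were Psma1 -0.026, Psma6 -0.19, Psmb2 -0.034, Psmb5 -0.021, Psmc3 -0.049, Psmc4 -0.054, Psmd1 -0.40, Psmd14 -0.15, Psmd2 -0.39, Psmd3 -0.45, Psmd4 -0.052, Psmd7 -0.018, Psmd9 -0.27, Psmg3 -0.041, Psme3 -0.25, Adrm1 -0.17 and Nfe2l1 -0.025. With equal totals, the log2 values that changed sign in treated cells from 3 to 6 h were Psmb5 -0.12, Psmd12 -0.036 and Psmd2 -0.26. With equal totals, the log2 values that changed sign in the 6 h response less the 3 h response were Psmc1 -0.15, Psmd1 -0.17, Psmd2 -0.12 and Psmd5 -0.17. After quantile normalization, the log2 values that changed sign in the WT response at 6 h were Psmb5 -0.072 and Psmd2 -0.30. After quantile normalization, the log2 values that changed sign in the KO response at 3 h were Psmb5 -0.17, Psmd8 -0.23 and Nfe2l1 -0.065. After quantile normalization, the log2 values that changed sign in the KO response at 6 h were Psmd2 -0.32, Psmd3 -0.16, Psme3 -0.042 and Nfe2l1 -0.17. After quantile normalization, the log2 values that changed sign in treated cells from 3 to 6 h were Psmb5 -0.054 and Psmd2 -0.17.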
